A study of Mus musculus with 10 samples.

Results

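ZFP266 is a KRAB zinc finger protein, and the DamID-seq peaks described here are those that hold a B1 SINE and no AP-1 motif. A DamID-seq peak was taken when its most similar overlapping B1 SINE, at least 80 bp long by blastn against a 145-base B1 consensus, was at least 80% and under 95% identical to that consensus, and when the peak held neither TGACTCA nor TGAGTCA, the 7-base AP-1 motif on either strand. This gave 2121 of the 15119 peaks (14%), called B1-only peaks below. Within the list, the rule used sequence alone and took no account of a peak's signal. The list itself was called on signal, and the study that reported the data had found B1 SINEs and AP-1 motifs enriched in these peaks. The rule was thus not independent of the data, and the shares of fragments in peaks below describe the same features again. A further 1666 peaks held a B1 SINE of the same identity together with an AP-1 motif, 4500 held an AP-1 motif and no B1 SINE, 5645 held neither, and 1187 held a B1 SINE below 80% or at 95% or more.

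The study asked where ZFP266 sits in the genome of mouse embryonic fibroblasts (MEFs). MEFs of the 129 strain received by nucleofection either the plasmid PGK-mO-Dam (5 Dam only samples) or PGK-mO-Dam-Zfp266 (5 Dam-ZFP266 samples), in which the PGK promoter drives mOrange as the first reading frame and the Dam protein is made by reinitiation. By the labels, mOrange+ cells were sorted 48 h later, and 32 ng of genomic DNA went into each library. Both groups therefore carried Dam and differed in its fusion to ZFP266, which came from the plasmid in addition to the cells' own protein. The values used are those of 1 peak list made from all 10 samples together, so the read depth is unknown, no value of a single sample enters, and no test over samples could be made. Intervals are 95% intervals (Wilson for shares, binomial for medians). They cover counting error only, and fragments that lie side by side are not independent. DamID-seq measures no expression, so the fibroblast label could not be checked against marker genes.

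B1 elements are short retrotransposed repeats of rodents, derived from the 7SL RNA of the signal recognition particle, and their internal promoter for RNA polymerase III lies near the 5′ end. KRAB zinc finger proteins bind DNA through an array of zinc fingers, frequently at transposable elements, and recruit the corepressor TRIM28 through the KRAB domain. AP-1, a dimer of FOS and JUN proteins, binds the enhancers of fibroblasts. Dam methylates GATC sites near the place where the fusion protein sits, and the fragments between neighbouring GATC sites (DpnII fragments) are the units of the assay.

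The consensus is shown first, since the values below are given along it. Capitals mark its positions 44 to 55, counted from 1 at the 5′ end, where the B1 SINEs of the peaks stood apart from those elsewhere, and n at position 89 is a base that the consensus leaves undetermined.
B1 consensus: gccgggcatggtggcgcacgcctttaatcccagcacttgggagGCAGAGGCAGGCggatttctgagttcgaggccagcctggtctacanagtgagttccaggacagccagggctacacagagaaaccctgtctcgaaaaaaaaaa

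The B1 SINEs of 6 of the 10 B1-only peaks with the highest signal values follow, each read 5′ to 3′ along the consensus, from the RefSeq copy of GRCm38.p6. Here capitals mark bases that differ from the consensus or are extra to it, and missing bases are left out.
B1 SINE at chr8:125628221-125628364, minus strand: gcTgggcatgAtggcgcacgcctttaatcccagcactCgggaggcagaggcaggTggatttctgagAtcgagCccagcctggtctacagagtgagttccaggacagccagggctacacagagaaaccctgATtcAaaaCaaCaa
B1 SINE at chr12:104971109-104971235, minus strand: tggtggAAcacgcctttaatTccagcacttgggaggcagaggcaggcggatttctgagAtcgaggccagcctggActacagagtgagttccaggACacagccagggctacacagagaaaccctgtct
B1 SINE at chr10:58320746-58320879, minus strand: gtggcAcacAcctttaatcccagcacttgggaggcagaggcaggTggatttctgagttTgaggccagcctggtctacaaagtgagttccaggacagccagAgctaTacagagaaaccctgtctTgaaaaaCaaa
B1 SINE at chr5:63955474-63955600, plus strand: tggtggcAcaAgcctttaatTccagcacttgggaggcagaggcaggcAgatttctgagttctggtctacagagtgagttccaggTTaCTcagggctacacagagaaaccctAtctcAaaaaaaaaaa
B1 SINE at chr5:121640451-121640595, plus strand: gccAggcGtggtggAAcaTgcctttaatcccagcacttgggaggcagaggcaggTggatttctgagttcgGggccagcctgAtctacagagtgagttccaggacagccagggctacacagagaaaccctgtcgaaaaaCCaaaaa
B1 SINE at chr10:127086319-127086440, plus strand: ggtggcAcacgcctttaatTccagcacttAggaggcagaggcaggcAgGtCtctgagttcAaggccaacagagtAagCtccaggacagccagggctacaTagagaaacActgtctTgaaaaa

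These elements were 83.2 to 93.7% identical to the consensus over the aligned bases. The highest signal value, 2.415, belonged to an intergenic peak of 1194 bp with a −log10 q of 5.61, and the second, 2.10, to an intergenic peak of 1287 bp with a −log10 q of 2.63. The third, chr8:125626709-125628297, had a signal value of 1.90 and lay 41520 bp from *Map10*, a microtubule-associated protein gene. The fourth, on chromosome 18 and given without its sequence, had a signal value of 1.89 and lay 17153 bp from *Sh3tc2*. All 10 of these peaks were single DpnII fragments, and in 3 of them the B1 SINE ran across an edge of the peak.

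Of the others, *Syne3* (nesprin-3, a protein of the nuclear envelope) held chr12:104971177-104972237 in intron 3 of 18, with a signal value of 1.88. The peak at chr10:58320160-58321005, with a signal value of 1.86, lay 2541 bp from *Lims1*, which encodes the focal adhesion protein PINCH1. *Rell1* held chr5:63955358-63956161 in intron 1 of 6 with a signal value of 1.83. *Acad10*, of the acyl-CoA dehydrogenase family, held chr5:121638872-121640532 in intron 8 of 20 with a signal value of 1.83. The midpoint of chr10:127086165-127088338 fell in a coding exon of *Agap2*, a GTPase-activating protein gene, and its signal value was 1.81. Genic and intergenic places were thus both present among the highest values.

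The B1-only peaks next to the identity limits show what the class spans. The 3 most similar, all at 94.96%, had 6 changed bases each over 139 aligned bases, with the undetermined base at position 89 also counted as a mismatch in the identity, and signal values of 1.09, 1.03 and 0.762. The first lay in the promoter of *Gzmm* (granzyme M), the second 4587 bp from *Hrob* and the third 17345 bp from *Slc7a15*. The 3 least similar, at 80%, had signal values of 0.956, 0.904 and 1.26. The last of these had 21 changed bases besides extra ones and lay 11336 bp from *Hnrnpc*, which encodes an RNA-binding protein of nuclear ribonucleoproteins. Just outside the limits, a peak without AP-1 whose B1 SINE was 95% identical had a signal value of 0.794, and one at 79.86% had 0.924.
B1 SINE at chr10:79693356-79693494, plus strand: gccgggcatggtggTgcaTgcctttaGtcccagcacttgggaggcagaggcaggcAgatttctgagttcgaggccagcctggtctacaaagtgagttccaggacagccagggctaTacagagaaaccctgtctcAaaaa
B1 SINE at chr11:102244060-102244198, plus strand: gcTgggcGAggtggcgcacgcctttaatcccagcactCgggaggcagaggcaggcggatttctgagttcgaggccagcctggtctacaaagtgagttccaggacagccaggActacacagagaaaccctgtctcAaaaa
B1 SINE at chr12:8619552-8619690, plus strand: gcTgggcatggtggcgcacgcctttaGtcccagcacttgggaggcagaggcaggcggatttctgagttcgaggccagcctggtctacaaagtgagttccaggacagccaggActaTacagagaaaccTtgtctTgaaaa
B1 SINE at chr14:52061238-52061387, minus strand: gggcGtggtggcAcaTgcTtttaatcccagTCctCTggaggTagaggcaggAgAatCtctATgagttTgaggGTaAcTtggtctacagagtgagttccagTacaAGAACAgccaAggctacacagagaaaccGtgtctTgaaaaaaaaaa

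Most B1-only peaks held a single B1 SINE, and in most the most similar element was nearly complete, as 2 separate counts. The most similar element of each had a median identity of 91.7% (quartiles 88.3 and 93.2%) and a median aligned length of 140 bp, and it was aligned over 130 bp or more in 1640 peaks (77.3%). There were 344 peaks at 80 to 85%, 364 at 85 to 90% and 1413 at 90 to 95%. One B1 SINE was present in 1469 peaks (69.3%), 2 in 472 and 3 or more in 180. The most were 6, in a peak of 9 fragments with a signal value of 0.739. The element lay whole inside the peak in 1837 cases (86.6%), on the plus strand in 1048 and on the minus strand in 1073. Its centre was a median of 404.5 bp from the peak's midpoint, and its 5′ end faced the midpoint in 48.4% (interval 46.3 to 50.6%), so that facing towards and away from it were not told apart.

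To set these peaks against the genome, every gap-free DpnII fragment was sorted by its B1 SINE and AP-1 content. Of 6669139 fragments, 29738 (0.446%) lay in a peak, whatever the kind of that peak. Fragments with a B1 SINE and no AP-1 motif can thus lie in peaks that hold an AP-1 motif in another fragment. Among the 202747 fragments with a B1 SINE of the class and no AP-1 motif, 3379 did (1.67%, interval 1.61 to 1.72%). Long fragments were more often in a peak whatever they held, so the share was compared at like length. At 1000 to 1500 bp, 3.16% (2.97 to 3.37%) of fragments with a B1 SINE and no AP-1 motif were in a peak, beside 1.13% (1.09 to 1.17%) of those with neither. The same pair was 0.576 and 0.212% at 250 to 500 bp, and 6.66 and 3.39% at 2000 to 3000 bp. From 3000 bp upwards it was 6.26% (4.77 to 8.18%) and 4.61% (3.88 to 5.45%), where the intervals overlapped.

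**Figure D1:**
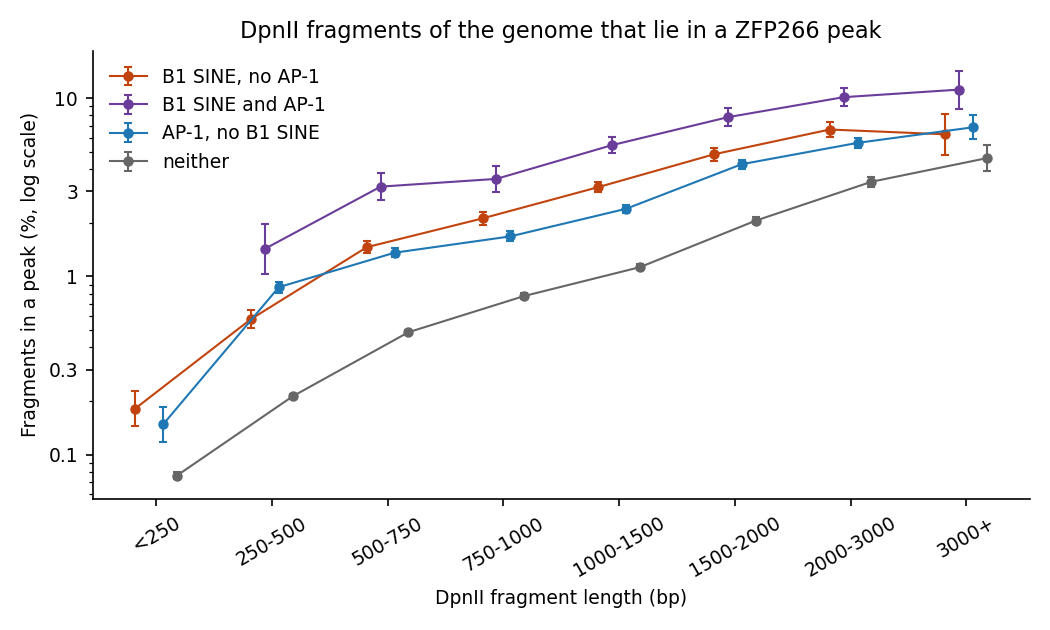
Share of DpnII fragments that lay in a ZFP266 peak (percent, log axis) by fragment length, for fragments with a B1 SINE of the class and no AP-1 motif, with both, with an AP-1 motif and no B1 SINE, and with neither; bars are Wilson 95% intervals, and the class under 250 bp with both, 0 of 690 fragments, is not drawn. Fragments with a B1 SINE and no AP-1 motif lie above those with neither in each length class, for example 3.16 against 1.13% at 1000 to 1500 bp.

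Standardised over 8 length classes, fragments with a B1 SINE and no AP-1 motif were in a peak 2.57 times (2.49 to 2.66) as frequently as fragments with neither, with 3379 observed and 1314 expected. The ratio was above 1 on each of the 20 chromosomes other than Y, from 1.73 on chromosome 13 to 3.20 on chromosome 7. Fragments with both had a ratio of 3.98 (3.77 to 4.20), and those with an AP-1 motif and no B1 SINE 2.22 (2.17 to 2.28). When fragments were compared within the same 1 Mb of the genome, the ratios were 1.88 (1.82 to 1.94), 2.91 and 2.07, and within 100 kb they were 1.57 (1.52 to 1.63), 2.43 and 1.95. The local comparison thus moved the ratio of fragments with a B1 SINE and no AP-1 motif below that of AP-1 alone, which it exceeded over the whole genome. Whether this follows the uneven spread of B1 SINEs over the genome was not tested.

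The ratio differed with the similarity of the B1 SINE to the consensus. Without an AP-1 motif it was 2.17 (1.96 to 2.40) at 80 to 82.5% identity, 2.64 (2.38 to 2.93) at 82.5 to 85%, 1.99 (1.76 to 2.26) at 85 to 87.5%, 1.95 (1.76 to 2.17) at 87.5 to 90%, 2.66 (2.50 to 2.83) at 90 to 92.5% and 3.16 (2.98 to 3.35) at 92.5 to 95%. The highest values were thus at 90% and above, with an additional high value at 82.5 to 85%. Within 1 Mb bins the ratios in the same order were 1.48 (1.34 to 1.65), 1.71 (1.54 to 1.89), 1.57 (1.38 to 1.77), 1.72 (1.55 to 1.90), 2.03 (1.90 to 2.16) and 2.16 (2.04 to 2.28), and the value at 82.5 to 85% no longer stood above that at 87.5 to 90%. More elements went with a higher ratio. Fragments with 1 B1 SINE had 2.40 (2.32 to 2.50), with 2 they had 3.37 (3.10 to 3.66) and with 3 or more 4.58 (3.88 to 5.39). Within 1 Mb bins these were 1.81 (1.75 to 1.88), 2.05 (1.89 to 2.23) and 3.16 (2.68 to 3.72), so that the step from 1 to 2 elements was small there. Among fragments with 1 element, those aligned over 130 bp or more had 2.35 (2.25 to 2.46), those that lacked the first 30 bases 2.24 (1.92 to 2.61) and those that lacked the last 35 bases 2.79 (2.31 to 3.38). These intervals overlapped, so an effect of truncation was not resolved.

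**Figure D2:**
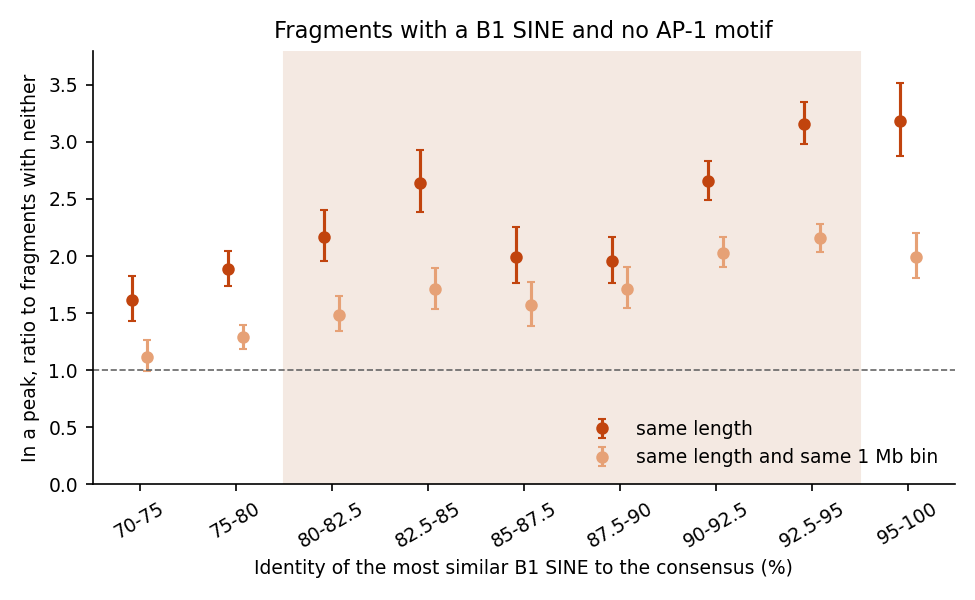
Ratio of the share in a peak, fragments with a B1 SINE and no AP-1 motif over fragments with neither, by the identity of the most similar B1 SINE to the consensus (percent); bars are 95% intervals, the dashed line is a ratio of 1 and the shaded range is the class of the B1-only peaks. Dark points, at like fragment length, reach 3.16 at 92.5 to 95% and 3.18 at 95% and above, and light points, also within the same 1 Mb, lie between 1.12 at 70 to 75% and 2.16 at 92.5 to 95%.

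The bases of the B1 SINEs themselves stood apart most clearly in one stretch of the consensus. All 2679 elements of the class that overlap B1-only peaks were compared with 180857 elements outside peaks that hold no AP-1 motif, at like whole-percent identity. At each position only elements aligned there were counted, in the peaks 1681 at position 8 and 2652 at position 55. Of 144 positions, 16 carried the consensus base more frequently in the peaks than outside and 12 less frequently, by the 95% intervals with no adjustment for the number of positions. In the stretch from 44 to 55, GCAGAGGCAGGC in the consensus, 7 of the 12 positions were higher and none lower. The limits of the stretch were set after these values had been seen, so this count is a description and tests nothing. C at position 55, the first base of a CpG, was kept in 63.7% (61.8 to 65.5%) of elements in the peaks and in 58.0% outside, and the commonest change, C55T, was present in 27.8% in the peaks. C at position 51 was kept in 96.4% (95.6 to 97.1%) and 93.6%, with C51T in 1.85% in the peaks and 4.09% outside before standardisation. C at position 45 was kept in 96.5% (95.8 to 97.2%) and 94.8%. Positions 51 and 55 were higher in the peaks on 19 of 20 chromosomes.

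The 2204 elements of the class in peaks that also hold an AP-1 motif, which are other peaks, gave values of the same direction. There C at position 55 was kept in 62.9% (60.9 to 64.9%) and 57.5% at like identity outside, and C at position 51 in 95.5% (94.5 to 96.3%) and 93.3%. In all, 6 of the 16 positions were higher in this set as well, and 5 of these lay in the stretch from 44 to 55. Of the 12 lower positions, 4 were lower in this set too, all outside the stretch. Among them, A at position 8 differed by -3.77 percentage points in B1-only peaks and -3.36 in this set. T at position 38 differed by -2.42 and -3.18. Over fixed segments of 29 bases, the second, positions 30 to 58, matched in 90.68% (90.47 to 90.89%) against 90.04%, a difference of 0.644 percentage points that was above 0 on 18 of 20 chromosomes. That interval counts 75568 bases singly, and bases of the same element are not independent, so it may be too narrow. In the other segments the difference was between -0.207 and 0.210 percentage points. Over the 6 CpGs of the consensus it was 1.32 percentage points (67.9 against 66.5%), and above 0 on 18 of 20 chromosomes.

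A cut site also bears on this comparison. T60C turns the letters at positions 57 to 60 into GATC, and an element with that site is divided between fragments. A GATC was present in the most similar B1 SINE of 344 B1-only peaks (16.2%, 14.7 to 17.9%) and in 26.4% of elements outside, which were not matched for identity here. Of all 2679 elements in B1-only peaks, 2202 held no GATC. Position 60 kept its T in 80.3% of elements in the peaks and 77.99% outside, but in 89.5 and 91.1% when elements with a GATC were left out, so its direction turned. Positions 51 and 55 did not turn: without such elements the values were 97.0 against 94.1% and 65.7 against 60.1%.

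**Figure D3:**
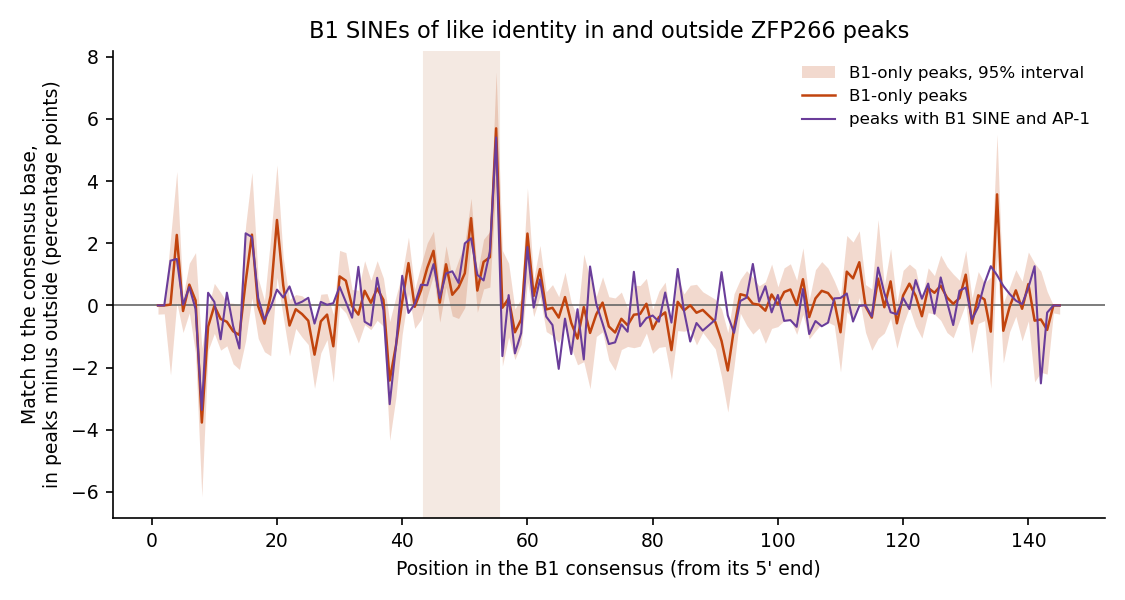
Share of B1 SINEs that carry the consensus base at each position, in peaks minus outside peaks at like identity (percentage points), for the 2679 elements in B1-only peaks (with the 95% interval) and the 2204 in peaks that also hold an AP-1 motif; the shaded band is positions 44 to 55. Both lines have their maximum at position 55, where the differences are 5.70 and 5.40.

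Fragments were also divided by whether their only B1 SINE carries the stretch from 44 to 55 unchanged. The stretch was chosen after the position values had been seen, so the comparison is a description. Without an AP-1 motif, 1151 of 53788 fragments that carry it were in a peak (2.14%) and 1491 of 123650 that do not (1.21%). At like length and identity the ratio was 1.43 (1.35 to 1.52), above 1 on 20 of 20 chromosomes. Within 1 Mb bins it was 1.49 (1.40 to 1.58), and 1.41 (1.33 to 1.50) for B1 SINEs that lie whole in the fragment. With an AP-1 motif in the fragment, the share was 6.81% for carriers and 4.07% for the others, a ratio of 1.49 (1.36 to 1.64), above 1 on 17 of 20 chromosomes.

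The head of the element carried most of its KLF motifs (CCACACCC, CCACGCCC, CCCCACCC or CCCCGCCC, on either strand). KLF factors bind such GC-rich boxes, and KLF4 is 1 of the reprogramming factors. In the bin from 100 to 50 bp before the centre of the element, there were 23.0 matches (21.2 to 24.9) per 100 elements in B1-only peaks and 18.9 (18.7 to 19.2) outside, compared with 1.25 to 2.54 in the other bins upstream of it in the peaks. At consensus positions 4 to 11, a KLF word was spelled in 518 of the 1549 elements of B1-only peaks aligned from position 4 (33.4%, 31.1 to 35.8%). At like identity outside it was spelled in 30.8%. Those of the 2679 elements in the peaks whose alignment begins later were not counted. In peaks with an AP-1 motif the values were 33.6% (31.1 to 36.3%) and 30.4%. The word was CCACGCCC in 409 and CCACACCC in 109 of the 518, both read on the other strand. The change A8G, which these words need, was present in 45.4% of the 1681 elements in the peaks that were aligned at position 8. Outside it was present in 39.7% of aligned elements before standardisation. The SOX motif (CCATTGT), bound by SOX family proteins, had no match in the peaks within 50 bp of the centre on either side, where a count of 0 in a bin allows up to 3 matches, or 0.149 per 100 elements (upper Wilson limit 0.191), and 0.498 to 1.10 matches per 100 elements between 500 and 150 bp upstream. Outside peaks the 2 bins beside the centre held 0.00530 and 0.0174 matches per 100 elements, so B1 SINEs in general almost lacked the motif there. From 50 to 100 bp after the centre, towards the tail of the element, the peaks also had no match, with the same limits. Outside peaks that bin held 0.159 matches (0.139 to 0.182) per 100 elements, which lies below the upper Wilson limit of the peaks.

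**Figure D4:**
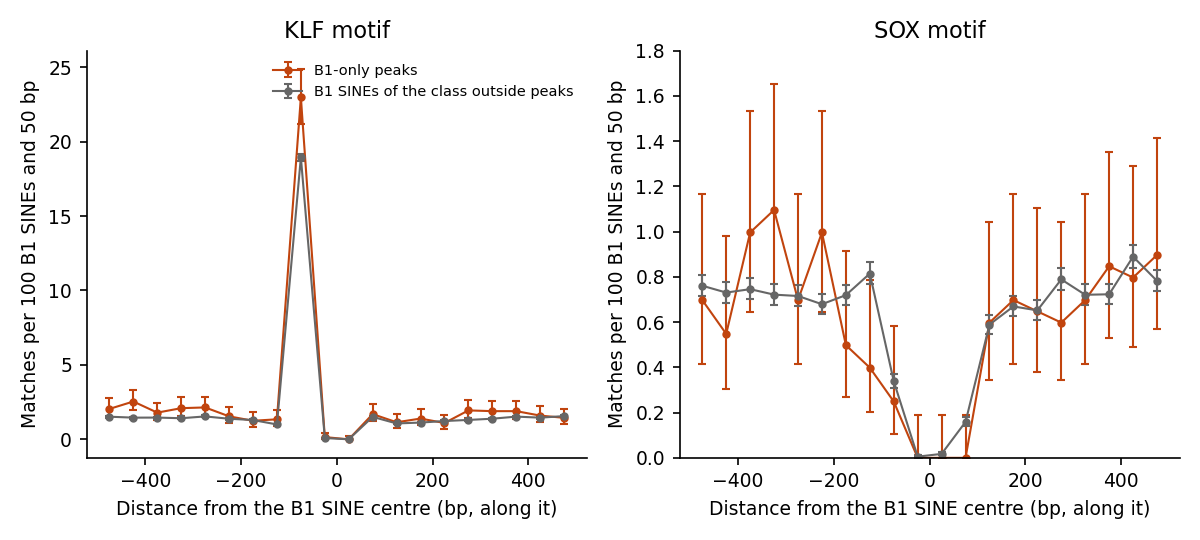
Exact matches of the KLF motif (left) and the SOX motif (right) per 100 B1 SINEs in 50 bp bins, by distance from the centre of the element along its own strand, for elements aligned over 130 bp or more in B1-only peaks and outside peaks; bars are Wilson 95% intervals. The KLF matches gather from 100 to 50 bp before the centre, at 23.0 per 100 elements in the peaks and 18.9 outside.

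Over whole peaks, the motif shares were read beside all genome windows of the same lengths that start at a GATC and beside those of them that meet the same B1 SINE and AP-1 rule outside peaks. A KLF motif was present in 47.7% (45.5 to 49.8%) of B1-only peaks, in 28.6% of all windows and in 41.0% of windows that meet the rule. For RUNX (TGTGGTT), a motif of runt domain factors, the shares were 40.6% (38.5 to 42.7%), 35.7 and 38.1%. The cAMP response element (TGACGTCA), which ATF and CREB proteins bind, was present in 1.51% (1.07 to 2.12%), 0.962 and 0.952%. The palindromic motif of nuclear factor I was found in 5 peaks (0.236%, 0.101 to 0.551%), beside 0.107 and 0.116% of the windows. SOX was present in 22.2% (20.4 to 24.0%), 28.7 and 23.5%, TEAD (CATTCCA) in 24.8% (23.0 to 26.7%), 25.8 and 24.1%, C/EBP (TTGCNNAA) in 49.3% (47.1 to 51.4%), 57.1 and 50.3%, and the CArG box of serum response factor in 9.57% (8.39 to 10.9%), 10.6 and 9.40%. Compared with windows that meet the rule, the interval of the peaks lay above the windows for KLF, RUNX and the cAMP response element, and held the windows' value for the other 5 motifs. These motifs were not particular to B1-only peaks, where matches per kb were 0.4241, 0.2961 and 0.008179 in that order. With both B1 SINE and AP-1 motif they were 0.4417, 0.2664 and 0.00743. Peaks with AP-1 alone had 0.3084, 0.2512 and 0.00759, and peaks with neither 0.3445, 0.2997 and 0.008339. Among these kinds, none of the motifs was thus densest in B1-only peaks. These densities have no intervals.

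The rule bars AP-1 motifs inside the peak and says nothing of the flanks. Within 1 kb of an edge, 771 B1-only peaks (36.4%, 34.3 to 38.4%) had an AP-1 motif, beside 28.6% of windows that meet the same rule outside peaks and 26.0% of all windows. Peaks with neither a B1 SINE nor an AP-1 motif had one in 40.7% (39.4 to 42.0%), and peaks with both had a further one in 34.1% (31.9 to 36.4%). The nearest AP-1 motif lay a median of 1538 bp (1429 to 1678) from the edge of a B1-only peak and 1378 bp (1324 to 1432) from a peak with neither. Within 5 kb, the share was 87.2% (85.7 to 88.6%) and that of the windows 80.5%. Another peak lay within 1 kb of 423 B1-only peaks (19.9%, 18.3 to 21.7%), near the 19.3% (18.3 to 20.4%) of peaks with neither.

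Longer peaks have more room for a B1 SINE or an AP-1 motif, so the rule itself bears on the lengths of the kinds. The B1-only peaks were shorter than those that also hold an AP-1 motif and longer than those with neither. Their median length was 1728 bp (1683 to 1777), compared with 2510 bp (2437 to 2586) and 1479 bp (1448 to 1503), and 1221 of them (57.6%) were single fragments. The longest spanned 51410 bp on chromosome 4, 4030 bp from *Nkain1*, but 50000 of these bases were an assembly gap, and the longest without a gap was 9604 bp. The shortest, 303 bp, lay in intron 25 of 26 of *Ptpn4*, a protein tyrosine phosphatase gene.

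The signal value, which compares Dam-ZFP266 with Dam only on a scale that the sources used here do not state, had a median of 0.931 (0.920 to 0.943) in B1-only peaks. It ranged from 0.264 to 2.415, with quartiles of 0.774 and 1.10. The median was 0.848 (0.829 to 0.862) in peaks with a B1 SINE and an AP-1 motif, 0.849 (0.839 to 0.856) in peaks with an AP-1 motif and no B1 SINE, and 0.935 (0.927 to 0.942) in peaks with neither. The difference of 0.0835 from peaks with both was not kept at like length: it was -0.00183 when standardised over length and -0.0125 among single fragments. Against peaks with neither, the difference was -0.00389, with values above 0 on 8 of 20 chromosomes, and 0.0191 at like length. Among single-fragment peaks the medians were 1.02 (1.00 to 1.03) and 0.984 (0.978 to 0.992). Below 1000 bp they were 1.05 (1.02 to 1.08) in B1-only peaks, 1.04 (0.976 to 1.10) with both, 0.973 (0.952 to 0.991) with AP-1 alone and 1.00 (0.991 to 1.01) with neither. At 3000 to 5000 bp the medians were 0.748 (0.718 to 0.786) in B1-only peaks and 0.755 (0.728 to 0.788) with neither. At 5000 bp or more they were 0.694 (0.622 to 0.747) in 40 peaks and 0.828 (0.7445 to 0.915) in 44. The order thus turned in long peaks, but the intervals overlapped in both of these length classes, at 5000 bp or more only just.

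**Figure D5:**
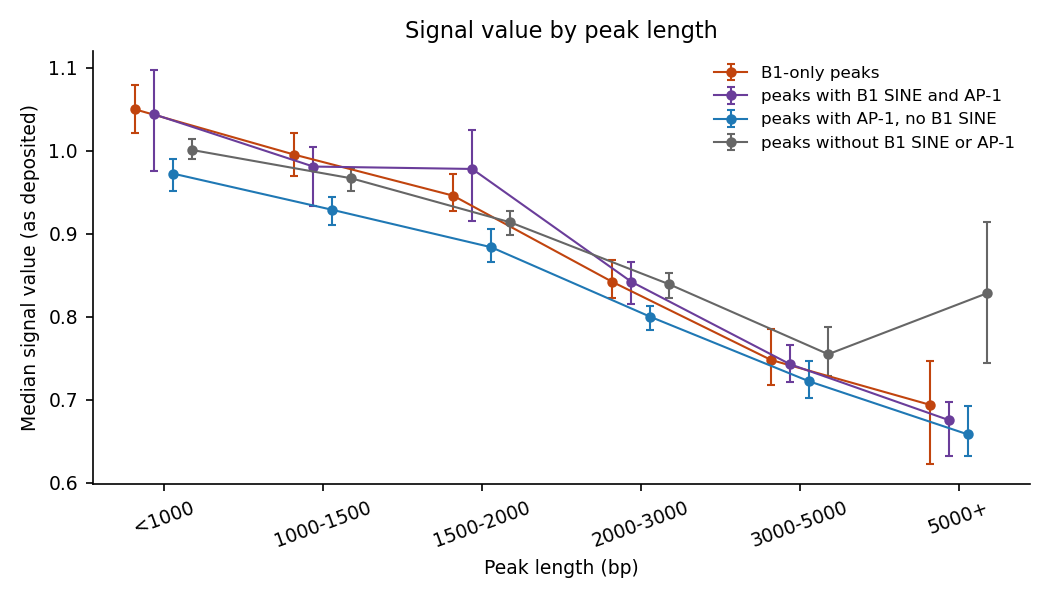
Median signal value as deposited by peak length, for B1-only peaks, peaks with a B1 SINE and an AP-1 motif, peaks with an AP-1 motif and no B1 SINE, and peaks with neither; bars are 95% binomial intervals of the median, and the vertical axis does not start at 0. The medians of B1-only peaks fall from 1.05 below 1000 bp to 0.694 at 5000 bp or more.

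All peaks of the list had q up to 0.1, and 3986 (26.4%) had q under 0.05 with a signal value above 1. Of the B1-only peaks, 675 did (31.8%, 29.9 to 33.8%), beside 23.7% (21.7 to 25.8%) of peaks with both, 22.6% (21.5 to 23.9%) with AP-1 alone and 28.3% (27.2 to 29.5%) with neither. At under 1000 bp the share was 44.3% (39.2 to 49.5%) in B1-only peaks and 33.5% (31.2 to 36.0%) in peaks with neither, and at 2000 to 3000 bp it was 22.2% (18.9 to 25.9%) and 21.1% (18.8 to 23.6%). In peaks with both, the share at under 1000 bp was 38.1% (29.1 to 48.1%), and it was 38.4% (32.4 to 44.9%) at 1500 to 2000 bp, beside 35.6% (31.34 to 40.05%) in B1-only peaks, and 24.4% (20.8 to 28.3%) at 2000 to 3000 bp. At 1000 to 1500 bp the share was 40.5% (36.2 to 44.9%) in B1-only peaks and 34.95% (28.8 to 41.7%) in peaks with both. The excess over peaks with both thus had overlapping intervals below 1500 bp and was not kept at 1500 to 3000 bp. Along the identity of the B1 SINE the intervals overlapped, at 32.0% (27.3 to 37.1%) from 80 to 85% and 31.6% (29.3 to 34.1%) from 90 to 95%. The *Zfp266* gene held 5 peaks, none of them B1-only. Ranked by signal value without these 5, the first 100 peaks included 14 B1-only peaks (14%, 8.53 to 22.1%) and the first 1500 included 266 (17.7%, 15.9 to 19.8%), beside 14% of the whole list. Ranked by q, the first 1500 included 204 (13.6%, 11.96 to 15.4%).

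By midpoint, 1068 B1-only peaks lay in introns (50.4%, 48.2 to 52.5%), 944 between genes (44.5%), 64 in promoters (3.02%, 2.37 to 3.83%) and 45 in exons, of which 18 were in coding sequence, 6 in 5′ UTRs, 14 in 3′ UTRs and 7 in noncoding exons. The promoter was counted from 1000 bp before to 100 bp after a transcript start. Introns held 45.7% (44.9 to 46.5%) of all peaks. Within introns, 677 B1-only peaks (63.4%, 60.5 to 66.2%) lay in the first one, compared with 49.9% (48.0 to 51.9%) of the intronic peaks with neither motif nor element. Counted by element, 63.9% (61.3 to 66.4%) of intronic B1 SINEs in B1-only peaks were in a first intron, 58.2% (55.1 to 61.1%) of those in peaks with an AP-1 motif and 28.1% (27.8 to 28.4%) of those outside peaks. The elements in B1-only peaks ran in the direction of the host gene in 37.0% of intronic cases (34.5 to 39.5%), those in peaks with an AP-1 motif in 38.5% (35.6 to 41.5%) and those outside in 44.1% (43.8 to 44.4%). Intronic B1 SINEs were thus more frequently in first introns and antisense in either kind of peak than outside peaks, and the antisense shares of the 2 kinds overlapped. Whether the intron's place or other features move with this was not tested.

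A B1-only peak lay in 919 of 21000 protein-coding genes and in or within 10 kb of 1587 (7.56%). The gene with most was *Wwtr1*, which encodes the Hippo pathway coactivator TAZ, with 6 B1-only peaks among 11 peaks in 120.3 kb. *Nrg1*, which encodes the growth factor neuregulin 1, had 5 among 19. *Ankrd11* (a chromatin regulator), *Arhgap10* (a GTPase-activating protein) and *Atp2b1* (a plasma membrane calcium pump) had 4 each, as did 13 genes in all. Long genes can hold more peaks, and these 5 were 111.5 to 267.6 kb long.

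The gene lists are read beside the 7.56% of all genes. Of 19 AP-1 family genes, 5 (26.3%, 11.8 to 48.8%) had a B1-only peak in the gene or within 10 kb. This list also takes in ATF, BATF and MAF genes, and *Junb* was the only FOS or JUN gene among the 5. The peaks in *Atf2*, *Batf* and *Maff* were intronic, with signal values of 1.29, 0.922 and 0.859, and those at *Mafg* and *Junb* lay 1040 and 9572 bp away with signal values of 1.32 and 0.844, the former in intron 1 of *Gm17586*. Of 29 integrin and focal adhesion genes, 6 had one (20.7%, 9.85 to 38.4%), but their median length of 82.5 kb was above the 16.7 kb of all genes. They were *Itgav* (integrin alpha V), *Vcl* (vinculin) and *Pxn* (paxillin), each in an intron, and *Ptk2* (focal adhesion kinase), *Lpp* and *Actn4* (alpha-actinin 4) at 9349, 5824 and 369 bp. Of the pluripotency genes, 4 of 23 had one (17.4%, 6.98 to 37.1%). The peak in *Tet1*, a 5-methylcytosine dioxygenase gene, was in intron 3 with a signal value of 0.522, and those near *Pou5f1* (OCT4), *Klf5* and *Sall4* lay 6053, 5371 and 7680 bp from the gene with signal values of 1.15, 0.800 and 1.13, the last in intron 1 of *Atp9a*.

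Of 22 genes of the KRAB corepressor and heterochromatin, 3 (13.6%, 4.75 to 33.3%) had a B1-only peak, each in intron 1. These were *Cbx5*, which encodes heterochromatin protein 1 alpha, and the DNA methyltransferase genes *Dnmt1* and *Dnmt3a*, with signal values of 0.938, 1.05 and 0.867. Of 28 fibroblast transcription factor genes, 2 (7.14%) had one, in intron 2 of *Zeb1* and 8 bp from *Heyl*. Of 29 extracellular matrix and surface genes, 1 (3.45%) did. This was *Loxl1*, a lysyl oxidase that crosslinks elastin, with a peak of 1169 bp in intron 1, a signal value of 1.49 and a −log10 q of 3.16. Of 12 markers of other cell types, 1 (8.33%), the endothelial gene *Pecam1*, had a B1-only peak, 4306 bp away. Within 10 kb, the intervals of the AP-1 family and of the integrin and focal adhesion genes lay above 7.56%. In the gene body alone, where all genes had 4.38%, the integrin list had 10.3% (3.58 to 26.4%), which held that value, while the AP-1 family had 15.8% (5.52 to 37.6%) and the KRAB corepressor list 13.6% (4.75 to 33.3%). The median gene length was 31.4 kb in the KRAB corepressor list and 8.24 kb in the AP-1 family, beside 16.7 kb for all genes. The lists are small and were chosen with earlier results of these data known, so these shares are a description. A peak near a gene says nothing of that gene's expression.

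The B1-only share of peaks varied along the genome. It was lowest on chromosome 13 (80 of 816 peaks, 9.80%, 7.95 to 12.04%) and highest on chromosome 11 (171 of 838, 20.4%, 17.8 to 23.3%), among chromosomes 1 to 19 and X. No share of windows that meet the rule is given by chromosome, and whether the variation follows the spread of B1 SINEs was not tested.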

How the data were processed

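DamID-seq of 5 Dam-ZFP266 and 5 Dam only samples of MEFs entered 1 peak list. By the study's methods, the authors trimmed the reads with Cutadapt, aligned them to GRCm38 with BWA (GRCm38.p6 per the submitters' processing notes, which also name FastQC), removed mitochondrial and blacklisted reads with SAMtools and BEDtools, assigned them to DpnII fragments by Rsubread, and ran the callPeak command of Daim over all samples. Versions of Cutadapt, BWA, Rsubread and Daim were not given in the sources used here. The deposited list gives each peak a score, a signal value, a −log10 p-value and a −log10 q-value, all from the authors' peak caller. The −log10 p-value was not used.

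All 15119 peaks started and ended at a DpnII cut of the reference genome, of the same build. B1 SINEs were found with blastn 2.17.0 (word size 11, e-value limit 10, no low-complexity filter, at least 80 bp at 70% identity). No genomic copy matched the whole consensus, so it was joined from 2 stretches of the genome that match its parts. Motifs were exact matches on both strands. Annotation was curated RefSeq (45756 transcripts), and where transcripts differ a protein-coding one gave the intron. Shares were set beside all fragments or windows of the genome, with no random regions. Windows had 20 lengths spread over those of the members, in place of the median length first planned. Expected counts were treated as fixed. The scripts ran under Python 3.11.15 (numpy 2.4.6, pandas 2.3.3, scipy 1.17.1, matplotlib 3.10.9), and their functions were tested on simulated data. The members (the B1-only peaks) and the gene lists were chosen with earlier results of these data known. Named peaks, outside *Zfp266*, were the 10 with the highest signal value, the 3 next to each identity limit and those just outside, the longest, the shortest and that with most B1 SINEs. Named genes were the 5 with most members and the list genes with a member in or within 10 kb. Some named items and sequences are not reported here.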

Additional observations from a re-analysis of the deposited data

How the results depend on the processing

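No paired analysis was possible because the list holds no value of a single sample, and for the same reason no replicate could be left out. The number of B1-only peaks, 2121, was within 1.5 times under 7 of 11 alternatives, and became 708 with an upper identity limit of 90%, 3259 when an AP-1 motif was barred only within 250 bp of the midpoint, 675 with q under 0.05 and a signal value above 1, and 1114 with a score above the median. The fragment ratio of 2.57 was 3.33 with those stricter peaks, 2.69 with single-fragment peaks, 2.38 with GC content in the standard, 1.88 within 1 Mb and 1.57 within 100 kb. It stayed within its interval with 16 length classes, with at least 100 bp aligned and with whole B1 SINEs. The signal difference from peaks with B1 SINE and AP-1 turned from 0.0835 to -0.0125 among single fragments and -0.00183 at like length. The cause was not tested. That from peaks with neither moved from -0.00389 to 0.0326 and 0.0191. Leaving out the *Zfp266* gene left the first as it was and gave -0.00369 for the second. The intronic share was 47.9% with protein-coding transcripts only and 52.8% with GENCODE vM21 basic transcripts. The AP-1 share was 87.2% within 5 kb. Genes with a B1-only peak numbered 919 in the gene body alone and 3485 within 50 kb. The 18 values of the match by segment and over CpGs under other choices of elements kept their direction, and segment 2 was 0.595 to 0.690 percentage points above the elements outside. The local bins, the GENCODE annotation and the omission of elements with a GATC were chosen after seeing the data.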
